A study of Mus musculus with 8 samples.

Results

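Smad4 ChIP-seq peaks found in wild-type T cells and not in Smad4 knockout T cells were examined where they lie at the ends of genes for long non-coding RNAs (lncRNAs), away from the ends of protein-coding genes. Malat1, Neat1, Pvt1, Dleu2, Mir155hg and Mir22hg were among the 633 lncRNA genes with such a region. The members are 651 regions of the 15882 WT-only regions in the series. Peaks of both WT lists that shared at least 1 bp were merged, and a merged region was kept if it held a peak of each WT list and met no peak of either KO list. Kept regions lay on the 19 autosomes, with their centre within 1 kb of a start or end of a lncRNA gene and more than 1 kb from every protein-coding gene end. The members were thus chosen by the peak calls of all 4 ChIP libraries, and the presence of WT peaks and absence of KO peaks at the members is not a finding.

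The series profiled Smad4, the SMAD protein shared by the TGF-β and BMP pathways, in CD4+ T cells of C57BL/6 mice, taken from lymph nodes together with spleen. All cells were activated and cultured in IL-6 plus a TGF-β receptor inhibitor, and were fixed with formaldehyde 12 h after treatment. The 2 WT libraries were labelled female. The 2 KO libraries came from animals with genotype CD4cre;Smad4fl/fl, in which a Cre driven by Cd4 regulatory sequence deletes the floxed Smad4 gene in T-lineage cells; KO replicate 1 was a pool of males and females and KO replicate 2 was male, so sex and genotype cannot be told apart. Nothing in the labels states that the replicates are different animals, and 4 input samples were not used here. Read depth was unknown, and the peak lists hold positions only, so peak width in bp is the one measure of size. All 8 T cell marker genes checked (Cd3d, Cd3e, Cd3g, Cd247, Cd4, Cd28, Lck and Thy1) had a WT-only region in the gene or within 1 kb of it, against 2 of 5 B cell genes (Cd79a and Pax5), 0 of 5 myeloid genes and 0 of 2 CD8 genes. This shows where Smad4 peaks lay, not which genes were expressed. A background share for the marker rule was not counted, so no enrichment in any cell type is read from these small counts. For the narrower rule of a region centre within 1 kb of a gene end, the background was 28.9% of autosomal coding genes.

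LncRNAs are transcripts that carry no long open reading frame. Some act as structural RNAs of the nucleus, such as Malat1 in nuclear speckles and Neat1 in paraspeckles, others are processed to release microRNAs or small nucleolar RNAs (snoRNAs), and at many loci transcription through an enhancer or the neighbouring DNA element matters more than the RNA. Smad4 binds DNA through its MH1 domain, with receptor-regulated SMADs, at CAGAC elements and at GC-rich 5GC elements with the core GGCGC, commonly beside other factors such as AP-1, ETS or RUNX proteins. Most lncRNA models in the mouse annotation carry only a provisional name (Gm or Rik) and have no known role.

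Promoter sequences of 8 lncRNA genes are examples of the DNA under regions at gene starts, from CpG-dense to CpG-free. Denser windows were also covered, such as that of Gm15327 with 61 CpG, and sequence under regions at 3′ ends only was not read. The 8 sequences run from 250 bases before to 50 after the annotated gene start, 5′ to 3′ on the gene's own strand. They were taken from RefSeq on GRCm38.p6 (mm10). Capitals mark each CAGAC and each GGCGC on either strand, which read GTCTG and GCGCC where the match is on the opposite strand. Each window was covered over all its 300 bases by a WT-only region, and each of the 8 holds a CAGAC or a GGCGC. Other fully covered windows, such as those of 2700012I20Rik and 4833438C02Rik, hold neither. The widest region is shown first and a wide region over a CpG-free window next. The structural RNA Malat1, the microRNA hosts Dleu2, Mir155hg and Mir22hg, the snoRNA host Snhg9 and the lncRNA Gm4668 beside the receptor gene Tgfbr2 follow.
1700016A09Rik (chr8:120537677-120537976, minus strand): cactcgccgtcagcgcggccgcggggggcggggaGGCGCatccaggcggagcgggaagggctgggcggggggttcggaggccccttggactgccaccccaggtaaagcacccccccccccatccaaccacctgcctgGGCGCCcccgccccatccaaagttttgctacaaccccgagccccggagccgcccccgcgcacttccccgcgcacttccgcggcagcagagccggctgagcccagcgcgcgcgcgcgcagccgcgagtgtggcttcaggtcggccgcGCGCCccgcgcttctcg
Gm41853 (chr19:44282188-44282487, plus strand): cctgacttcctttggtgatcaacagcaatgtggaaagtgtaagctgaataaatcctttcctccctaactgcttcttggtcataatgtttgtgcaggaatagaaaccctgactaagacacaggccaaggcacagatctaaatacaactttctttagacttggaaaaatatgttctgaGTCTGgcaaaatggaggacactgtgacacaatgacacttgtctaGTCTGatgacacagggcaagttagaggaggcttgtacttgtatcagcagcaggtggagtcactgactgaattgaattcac
Malat1 (chr19:5802623-5802922, minus strand): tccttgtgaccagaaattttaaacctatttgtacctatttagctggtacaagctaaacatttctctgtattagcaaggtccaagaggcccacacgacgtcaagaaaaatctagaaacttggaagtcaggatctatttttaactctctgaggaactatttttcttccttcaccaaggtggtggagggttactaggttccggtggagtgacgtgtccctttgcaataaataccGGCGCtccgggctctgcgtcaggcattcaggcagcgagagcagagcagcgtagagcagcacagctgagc
Dleu2 (chr14:61682324-61682623, minus strand): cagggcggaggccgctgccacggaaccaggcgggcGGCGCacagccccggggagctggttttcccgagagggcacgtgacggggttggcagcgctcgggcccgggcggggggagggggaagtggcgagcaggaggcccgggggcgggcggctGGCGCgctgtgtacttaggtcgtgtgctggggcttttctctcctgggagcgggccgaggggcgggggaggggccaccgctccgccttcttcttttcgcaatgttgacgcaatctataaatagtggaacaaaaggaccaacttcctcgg
Mir155hg (chr16:84712773-84713072, plus strand): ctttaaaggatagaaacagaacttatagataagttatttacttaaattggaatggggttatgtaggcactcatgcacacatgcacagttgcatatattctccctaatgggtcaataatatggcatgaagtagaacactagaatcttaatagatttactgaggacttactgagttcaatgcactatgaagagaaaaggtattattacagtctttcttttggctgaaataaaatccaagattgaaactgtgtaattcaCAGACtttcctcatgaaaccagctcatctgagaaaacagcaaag
Mir22hg (chr11:75461289-75461588, plus strand): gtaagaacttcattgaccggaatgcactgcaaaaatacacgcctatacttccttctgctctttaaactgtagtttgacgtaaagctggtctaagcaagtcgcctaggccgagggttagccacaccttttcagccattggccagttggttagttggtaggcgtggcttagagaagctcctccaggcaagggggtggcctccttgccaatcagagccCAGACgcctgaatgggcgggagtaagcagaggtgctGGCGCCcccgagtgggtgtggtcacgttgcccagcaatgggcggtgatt
Snhg9 (chr17:24719916-24720215, minus strand): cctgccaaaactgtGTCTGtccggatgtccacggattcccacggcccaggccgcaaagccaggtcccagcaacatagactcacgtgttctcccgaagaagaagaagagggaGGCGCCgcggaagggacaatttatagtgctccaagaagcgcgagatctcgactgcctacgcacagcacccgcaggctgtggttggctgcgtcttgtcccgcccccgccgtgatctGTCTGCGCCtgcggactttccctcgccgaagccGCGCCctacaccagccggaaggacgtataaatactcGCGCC
Gm4668 (chr9:116188930-116189229, plus strand): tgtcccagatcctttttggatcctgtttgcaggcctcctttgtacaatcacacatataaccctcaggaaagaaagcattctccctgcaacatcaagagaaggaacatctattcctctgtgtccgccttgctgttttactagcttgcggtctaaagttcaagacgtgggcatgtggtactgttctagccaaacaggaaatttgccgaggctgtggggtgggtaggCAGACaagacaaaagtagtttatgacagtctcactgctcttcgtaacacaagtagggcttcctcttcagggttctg
The 1700016A09Rik window held 39 CpG dinucleotides and 4 GGCGC matches but no CAGAC, while the Gm41853 window held 0 CpG and 2 CAGAC matches. Snhg9 had the most matches of these 8, with 5 GGCGC and 2 CAGAC. Mir155hg had 1 CAGAC, 0 CpG and a GC content of 34.3%, the lowest of the 8. Malat1 had 10 CpG and 1 GGCGC.

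Before the rule on coding genes, 1262 autosomal WT-only regions had their centre within 1 kb of a lncRNA end. Of these, 611 also lay within 1 kb of a protein-coding gene end and were left out, which leaves the 651 members, 4.16% of the 15635 autosomal WT-only regions (95% exact interval 3.86% to 4.49%; intervals here cover counting error only). By their own centres, 1122 peaks of WT replicate 1 and 820 of WT replicate 2 lay at such lncRNA ends. The KO lists had 19 (replicate 1) and 15 (replicate 2) there. Over the whole lists there were 27120 and 19792 peaks in WT replicates 1 and 2. The KO lists held 564 and 424 in all, so the low KO counts are not particular to lncRNA ends. Of the WT replicate 1 peaks at these lncRNA ends, 61.3% met a peak of WT replicate 2, and 86.3% did so in the other direction. Of 678 reproducible WT regions at lncRNA ends, 651 (96.0%; interval 94.3% to 97.4%) met no KO peak. The background was 96.2% of all 16247 reproducible autosomal WT regions; the rule used this contrast, so nothing is read from it. With WT replicate 2 left out, the members rested on WT replicate 1 alone and numbered 1094, at 1004 lncRNA genes.

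The members touched 633 lncRNA genes, 5.10% of the 12408 autosomal lncRNA genes in the annotation. With regions near coding ends included, 9.80% of lncRNA genes had a WT-only region centre within 1 kb of an end, and 28.9% of the 20665 autosomal protein-coding genes did. The lncRNA genes with a member were shorter than lncRNA genes at large, with a median length of 6714 bp against 8393.5 bp. Most of them, 594, had 1 member, while 37 had 2 and Gm32803 and LOC115486505 had 3 each. Gm models made up the bulk of the annotation, and 448 of 9878 (4.54%) had a member. Of the Rik clones 125 of 1750 (7.14%) did, and of genes named as antisense to another gene 13 of 211 (6.16%).

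Among lncRNA genes with a known role, 52 were listed. Of these, 21 had a member, in 22 regions. The share with a member was 5.10% over all autosomal lncRNA genes. The list was chosen with earlier results of these data known, so no enrichment of known lncRNA genes is read from these counts. Another 5 of the listed genes (Gas5, Tug1, Snhg1, Snhg10 and Zfas1) had a WT-only region at an end that also lay within 1 kb of a coding gene end. Morrbid, which acts on the neighbouring cell death gene Bcl2l11, had a region at its end that was also called in KO. Airn, the imprinted antisense transcript of Igf2r, had regions inside the gene only. No WT-only region lay in or at the ends of 23, among them H19, Meg3, Rian and Mirg of imprinted loci, Hotair and Hottip of the Hox clusters, and Mir17hg. Mir142hg was not matched in the annotation. Of the 22 regions, 13 lay at the gene start, 3 at the 3′ end, 1 at both, and 5 at genes whose strand the sequence table does not give.

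**Figure D1:**
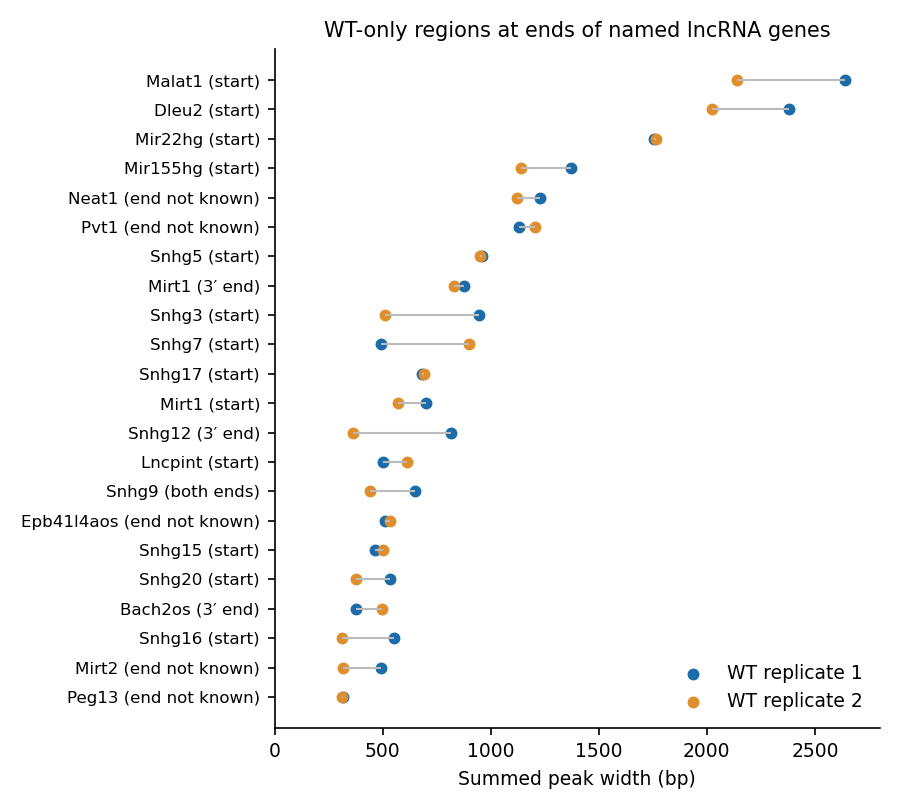
Summed width in bp of the peaks in each WT library for the 22 WT-only regions at ends of named lncRNA genes, 1 row per region, with a grey line joining the libraries; KO libraries had no peak at any of them, by the choice of members. Malat1, Dleu2 and Mir22hg lie highest, above 1700 bp in both libraries, and Peg13 lowest, at 314 and 310 bp.

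Malat1, whose RNA is among the most abundant in the nucleus, had the widest region of the named genes (chromosome 19, 5801512 to 5804151). Its peaks summed to 2638 bp in WT replicate 1 and 2140 bp in WT replicate 2, and the region covered the gene start. Neat1, the scaffold of paraspeckles on the same chromosome, had peaks of 1230 and 1120 bp at its higher-coordinate end (5844990 to 5846234). In both genes WT replicate 1 had the wider peaks. Neither had another WT-only region over the gene.

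Hosts of microRNAs were represented by Mir155hg, Mir22hg and Dleu2. Mir155hg, which yields miR-155, a microRNA induced in activated lymphocytes, carried 1370 bp of peaks in WT replicate 1 and 1142 bp in WT replicate 2 over its start (chromosome 16, 84712695 to 84714064). Mir22hg had peaks of 1756 and 1764 bp (chromosome 11, 75460100 to 75461872), which agree to within 8 bp. Dleu2, which carries miR-16-1 in its transcript, had peaks of 2380 and 2024 bp at its start (chromosome 14, 61680445 to 61683035), 49.9 kb from the microRNA itself. By the name pattern of microRNA hosts, 2 of 14 autosomal lncRNA genes (14.3%; interval 1.78% to 42.8%) had a member. Across all names, 7 lncRNA genes with a member held a microRNA on their own strand, with no background share over all lncRNA genes counted. Among the other 4 was E130102H24Rik, host of miR-101a, with summed peaks of 1370 and 1716 bp at its start (chromosome 4, 101355920 to 101357981). The mature microRNAs of these 4 hosts are given to identify what the bound genes produce, from RefSeq, with the seed (bases 2 to 8) in capitals.
mmu-miR-155-5p (host Mir155hg): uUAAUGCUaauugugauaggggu
mmu-miR-22-3p (host Mir22hg): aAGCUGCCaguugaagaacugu
mmu-miR-16-5p (host Dleu2): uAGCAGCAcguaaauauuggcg
mmu-miR-101a-3p (host E130102H24Rik): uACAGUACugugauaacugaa
The 4 seeds differ from each other, so these 4 microRNAs do not share a seed family. Those of the other hosts and arms were not compared. The microRNA lay 0.761 kb from the centre of the region at Mir155hg and 2.73 kb at Mir22hg.

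Hosts of snoRNAs, which carry small RNAs that guide rRNA modification in their introns, had members in 9 of 19 genes (47.4%; interval 24.4% to 71.1%). The share was 5.10% over all lncRNA genes. With regions near coding ends counted, 13 of the 19 had a WT-only region at an end. In 8 of the 9 the member lay at the gene start, and in Snhg12 at the 3′ end. Summed peak widths at the 9 ranged from 464 to 960 bp in WT replicate 1 (median 650 bp) and from 312 to 950 bp in WT replicate 2 (median 500 bp), close to the medians of all members. The libraries agreed at Snhg5 (960 and 950 bp) and Snhg17 (684 and 690 bp) and differed at Snhg7 (494 and 900 bp) and Snhg3 (946 and 512 bp). These genes are short, with a median length of 2929 bp.

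Mirt1 was the listed gene with separate members at its 2 ends. The region at its start measured 702 bp in WT replicate 1 and 572 bp in WT replicate 2, and the region at its 3′ end 878 and 828 bp. Pvt1, the lncRNA gene downstream of Myc, had peaks of 1130 and 1204 bp at its Myc-side end (chromosome 15, 62037808 to 62039011), 48.0 kb from Myc, and 8 WT-only regions overlapped its 222230 bp. Lncpint, a p53-induced lncRNA gene, had peaks of 502 and 614 bp at its start and 6 WT-only regions over the gene. Peg13, an imprinted lncRNA gene inside Trappc9, had narrow peaks of 314 and 310 bp. Bach2os, inside the repressor gene Bach2, had peaks of 378 and 496 bp at its 3′ end.

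By summed peak width, the widest member lay over the whole of 1700016A09Rik, inside Gse1 (chromosome 8, 120535038 to 120539209), with 4016 bp in WT replicate 1 and 3014 bp in WT replicate 2. The region at the 3′ end of 3300005D01Rik followed (chromosome 17, 5801912 to 5805767; 3582 and 2750 bp). Next came the start of 9330136K24Rik, inside the zinc finger gene Zfp52 (chromosome 17, 21534220 to 21537330; 2908 and 3074 bp). Gm51701, 37.3 kb from the chemokine receptor gene Ccr1, had 3074 and 2752 bp at its start (chromosome 9, 123923254 to 123926327) and a separate region of 1452 and 1102 bp at its 3′ end. WT replicate 2 was the wider of the 2 libraries at 9330136K24Rik, and WT replicate 1 at the other 3.

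The remaining 6 of the 10 widest lay at Gm10125 inside Zeb1 (2858 and 2914 bp), at Gm51804 inside Srgn (3024 and 2438 bp), and at Gm52667 inside the phosphodiesterase gene Pde4b (2760 and 2694 bp). Then came 1700012D01Rik near Nab2 (2594 and 2660 bp), Gm41640 near Zfp36l2 (2840 and 2368 bp) and Gm41853 near the desaturase gene Scd2 (2628 and 2566 bp). Of the 10, 5 had their centre inside a coding gene and 8 had another WT-only region within 20 kb. At each of the 10, both WT libraries had over 2300 bp of peaks. The lists are not sorted by position, and the place of a peak in its list ran with its width (Spearman correlation -0.953 in WT replicate 1 and -0.950 in WT replicate 2); what ordered the lists is not given. The Gm52667 peaks stood at places 62 of 27120 and 73 of 19792.

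**Figure D2:**
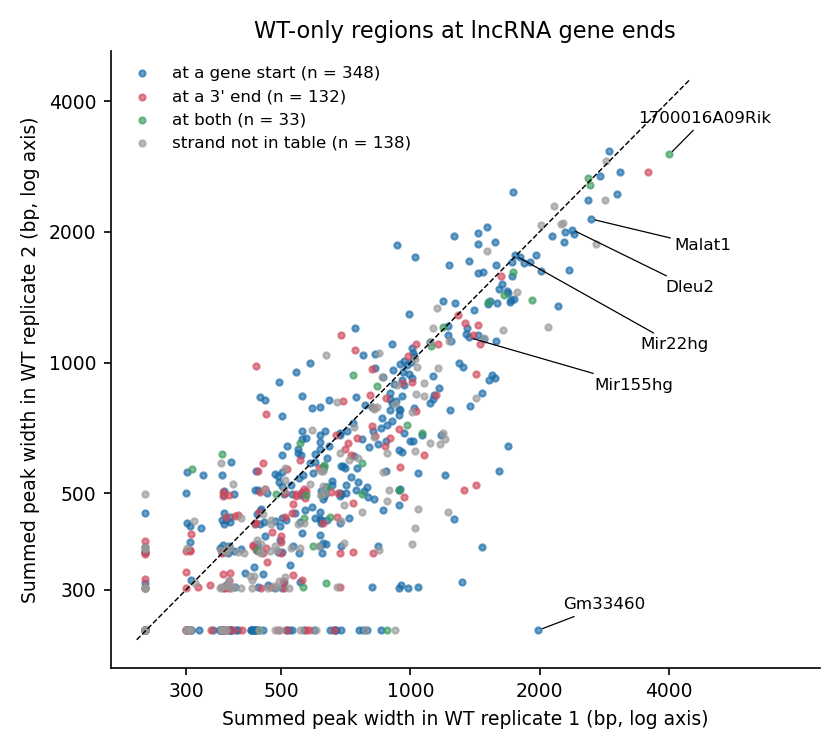
Summed peak width in WT replicate 1 against WT replicate 2, in bp on log axes, for the 651 WT-only regions at lncRNA gene ends, coloured by the end of the lncRNA gene they lie at; the dashed line marks equal widths. Most points lie below the line, and the row at 242 bp is the smallest width of the WT replicate 2 list.

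Over all 651 members, summed peak width ranged from 240 to 4016 bp in WT replicate 1 (median 616 bp) and from 242 to 3074 bp in WT replicate 2 (median 500 bp). WT replicate 1 was wider in 464 (71.3%), and the median ratio of the libraries was 1.18. The same ratio was 1.09 over the 5261 WT-only regions at protein-coding gene ends and 1.19 over the other 9723 autosomal WT-only regions, so the gap between libraries was not limited to lncRNA ends. Here and in the comparisons below, the regions at coding gene ends include the 611 that also lay within 1 kb of a lncRNA end. The Spearman correlation of the widths in the 2 libraries was 0.767 across the 651 members, which are not independent replicates. In WT replicate 2, 90 members (13.8%) had only a peak of the smallest width in the list, 242 bp, where width carries no further information. In WT replicate 1, 29 (4.45%) stood at its smallest width of 240 bp.

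The members were a little narrower than regions at coding gene ends and wider than the rest. The median merged width was 651 bp for members, 754 bp at coding gene ends and 596 bp elsewhere. In each WT library the 3 sets stood in the same order, with medians of 616, 666 and 556 bp in WT replicate 1 and 500, 588 and 440 bp in WT replicate 2. These differences were not tested, since regions are not replicates. Regions of at least 1000 bp made up 26.3% of members, 30.8% of regions at coding ends and 17.4% of the rest. Another WT-only region lay within 20 kb of 65.9% of members, of 47.3% of regions at coding ends and of 71.2% of the rest.

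Which end of the gene a region lay at was not part of the choice. The strand was known for an end at 513 members. Of these, 348 (67.8%) lay at a start only, 132 (25.7%) at a 3′ end only and 33 (6.43%) at both, so 74.3% (interval 70.3% to 78.0%) lay at a start. Of the 4340 regions at coding gene ends with a known strand, 95.4% (interval 94.8% to 96.0%) lay at a start. Counted over genes, 375 of 8054 lncRNA starts away from coding ends had a member (4.66%; interval 4.21% to 5.14%), against 152 of 8848 lncRNA 3′ ends (1.72%; interval 1.46% to 2.01%). Members at a start only had a median width of 712.5 bp and those at a 3′ end only 559.5 bp. At coding genes these medians were 770 and 585.5 bp.

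Around lncRNA starts the region centres were spread more widely than around coding starts. Of the 371 members whose nearest end was a start, 46.6% had their centre within 250 bp of it, against 71.3% of 4064 regions at coding starts. Centres lay upstream of the lncRNA start in 50.1% of cases, with a median offset of -2.5 bp. At coding starts 36.1% lay upstream, with a median of 64.5 bp into the gene. Around 3′ ends, 19.7% of 142 members and 24.5% of 196 regions at coding 3′ ends had their centre within 250 bp.

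**Figure D3:**
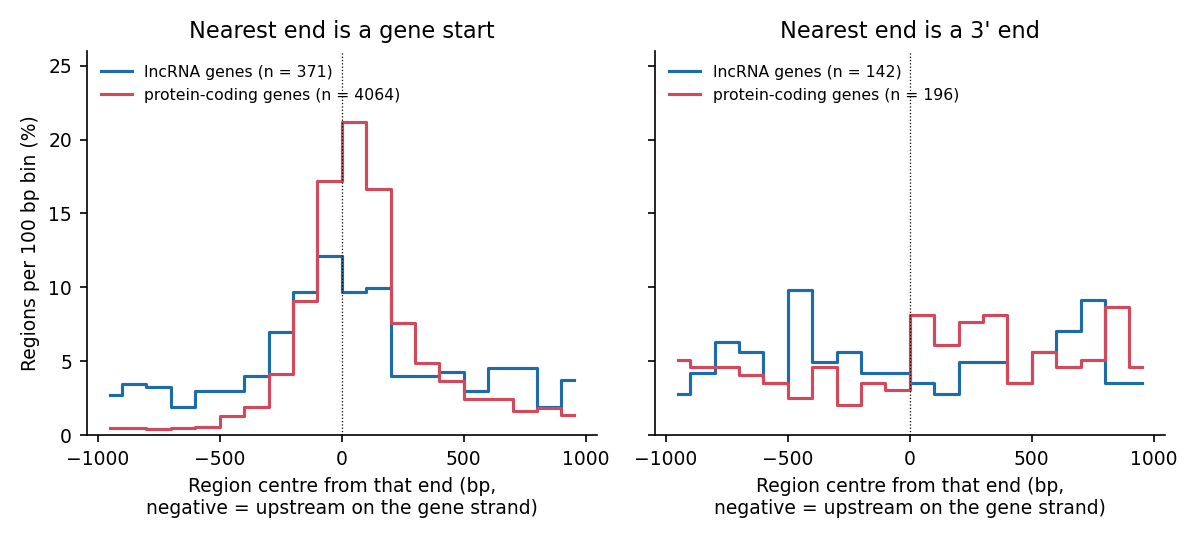
Distance in bp of the centre of each WT-only region from the nearest gene end, in bins of 100 bp and as a percent of the regions of each set, for lncRNA genes (blue) and protein-coding genes (red). The left panel shows regions nearest to a start, where coding genes have the sharper peak, and the right panel regions nearest to a 3′ end.

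Members lay at both ends of 56 lncRNA genes. Of these, 28 had 1 member, whose centre lay within 1 kb of both ends, and 28 had 2 or 3 members. Gm32803, beside the T cell adhesion gene Cd2, had regions of 1108 and 1114 bp and of 1376 and 794 bp (WT replicates 1 and 2) within 1 kb of its start and one of 364 bp in both libraries at its 3′ end. LOC115486505 had peaks of 310 and 568 bp at its start, and of 714 and 652 bp and of 460 and 374 bp at its 3′ end. Gm31869, between 13.9 and 18.9 kb from the death ligand gene Fasl, had 2012 and 1624 bp at its start and 702 and 634 bp at its 3′ end. The lncRNA 2310001H17Rik, with regions 28.1 and 34.3 kb from the activation marker gene Cd69, had 2592 and 2366 bp at its start and 510 and 500 bp at its 3′ end. Gm51814, 47.2 kb from the NF-κB inhibitor gene Tnfaip3, had 1108 and 806 bp at its start and 458 and 512 bp at its 3′ end. In these last 3 genes the region at the start was the wider in both libraries, while at 3300005D01Rik it was the narrower (524 and 342 bp at the start). A further 23 members lay at the ends of 2 lncRNA genes at once. The strand was known for both genes at 19 of these. At 11 the member lay at the starts of both genes, which were on opposite strands.

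Members near genes of T cell function or SMAD signalling were taken by the nearest coding gene end within 100 kb, from a list of 122 genes. There were 22 such members at 21 genes, 3.66% of the 601 members with a coding end within 100 kb. The list accounted for 1.46% of all lncRNA ends at 1 to 100 kb from a coding end, and for 6.98% of the other WT-only regions at that distance. These shares are a description and were not tested. Of the 22, 9 lay at a lncRNA start, 7 at a 3′ end, 1 at both, and 5 at genes of unknown strand. Summed widths ranged from 378 to 2840 bp in WT replicate 1 and from 242 to 2368 bp in WT replicate 2.

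In the TGF-β pathway, Gm4668 lay 14.0 kb from Tgfbr2, the ligand-binding TGF-β receptor gene, with peaks of 1436 and 1604 bp at its start (chromosome 9, 116188443 to 116190185). Gm31292, inside Tgfbr2 and 29.9 kb from its nearer end, had 386 and 526 bp. Gm32435, 1.62 kb from the partner receptor gene Tgfbr1, had 508 and 302 bp at its 3′ end (chromosome 4, 47351351 to 47351858). Of these 3, only the Gm4668 region was wider than the median member in both libraries.

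In the cytokine pathways, Gm46811, inside the interleukin 6 receptor gene Il6ra, had 2018 and 2078 bp (chromosome 3, 89870779 to 89873155), and 8 other WT-only regions lay within 20 kb of it. Gm12532, 33.2 kb from the cytokine gene Il21, had 1420 and 522 bp at its 3′ end. The libraries differed by less than 100 bp at Gm46811 and by far more at Gm12532.

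Among receptor and signalling genes, 2310016D23Rik, 4.21 kb from the costimulatory receptor gene Cd28, had 2346 and 1632 bp at its start (chromosome 1, 60776342 to 60778789). Gm38137, 48.3 kb from the inhibitory receptor gene Ctla4, had 424 and 242 bp. Gm41950, 38.9 kb from the chemokine receptor gene Cxcr4, had 1438 and 1220 bp at its 3′ end. A region at 8030442B05Rik and Gm13293, 38.0 kb from the T cell kinase gene Prkcq, had 1062 and 690 bp. Gm30120, 18.7 kb from Tnfrsf9, had 436 and 980 bp, and Gm16008, 2.02 kb from Tnfrsf18, had 852 and 242 bp.

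Among genes of transcription factors and regulators, Gm41640, 1.49 kb from the RNA decay factor gene Zfp36l2, had the largest sum, given above among the 10 widest. Gm33460, 3.05 kb from Eomes, a T-box factor gene, had 1988 bp in WT replicate 1 and 242 bp, the smallest width of the list, in WT replicate 2. It was the most unequal of the 22. Gm40679, 30.7 kb from Egr2, had 1130 and 824 bp at its start, and Gm15511, inside the Th17 regulator gene Rora, 1078 and 612 bp at its 3′ end. Lockd, 3.08 kb from the cell cycle inhibitor gene Cdkn1b and known as a locus with enhancer activity on it, had 940 and 758 bp at its start. Narrower regions lay at Gm30217, 35.2 kb from Tcf7 (526 and 374 bp), and at Gm31871, 41.6 kb from Ets1 (506 and 312 bp).

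Protein-coding genes lay near many members although their ends were kept at least 1 kb away. The median distance to the nearest coding end was 14.5 kb and the largest 436 kb. A coding end lay within 10 kb of 269 members (41.3%; interval 37.5% to 45.2%), against 25.2% of all 22610 lncRNA ends more than 1 kb from a coding end. The 2 shares are not on the same measure. For members the distance ran from the region centre, and for lncRNA ends from the end itself. A member could also lie at a lncRNA end under 1 kb from a coding end, and such ends are not among the 22610. Where the strand of the coding gene within 10 kb of a member was known, the end was its start in 148 of 209 (70.8%). The matching share over all lncRNA ends was not counted, so nothing is read from this value. The share of lncRNA ends with a member was 5.77% (interval 4.44% to 7.37%) at 1 to 2 kb from a coding end, 3.45% at 20 to 50 kb and 1.06% (0.798% to 1.37%) beyond 100 kb. Over all these ends it was 2.95%. The rule bars centres within 1 kb of a coding end, so ends at 1 to 2 kb had less room for a member than farther ends.

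**Figure D4:**
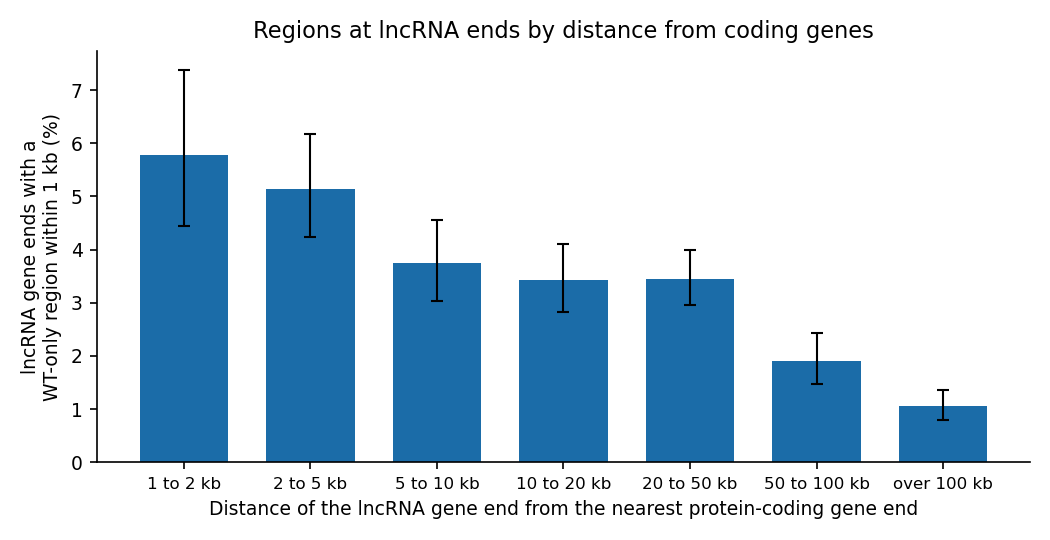
Percent of lncRNA gene ends with a WT-only region centred within 1 kb, by the distance in kb of that end from the nearest protein-coding gene end; bars start at 0 and error bars are exact 95% intervals that cover counting error only. The share is 5.77% at 1 to 2 kb and 1.06% beyond 100 kb. At 1 to 2 kb the rule on coding ends bars part of the window around each lncRNA end.

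Inside protein-coding genes lay 244 members (37.5%; interval 33.7% to 41.3%), against 27.8% of all lncRNA ends away from coding ends and 59.1% of the other WT-only regions. Regions were placed by their centre and lncRNA ends by the end itself. The lncRNA was on the strand opposite to the coding gene in 147 of the 161 members where both strands were known (91.3%). Among all lncRNA ends inside coding genes the opposite strand made up 89.2%, a share within the interval of the members (85.8% to 95.2%).

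Promoters of the 384 lncRNA genes with a member at the start were richer in CpG than lncRNA promoters at large and poorer than coding promoters with a WT-only region. The median was 8 CpG per 300-base window, against 4 in the 8371 lncRNA promoters with no WT-only region within 1 kb of the start and 24 in the 4651 coding promoters with a WT-only region. At least 10 CpG were found in 45.3%, 14.7% and 91.7% of these sets. The 113 genes with a member at the 3′ end only had a median of 5 CpG in their promoters, and 20.4% had at least 10.

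**Figure D5:**
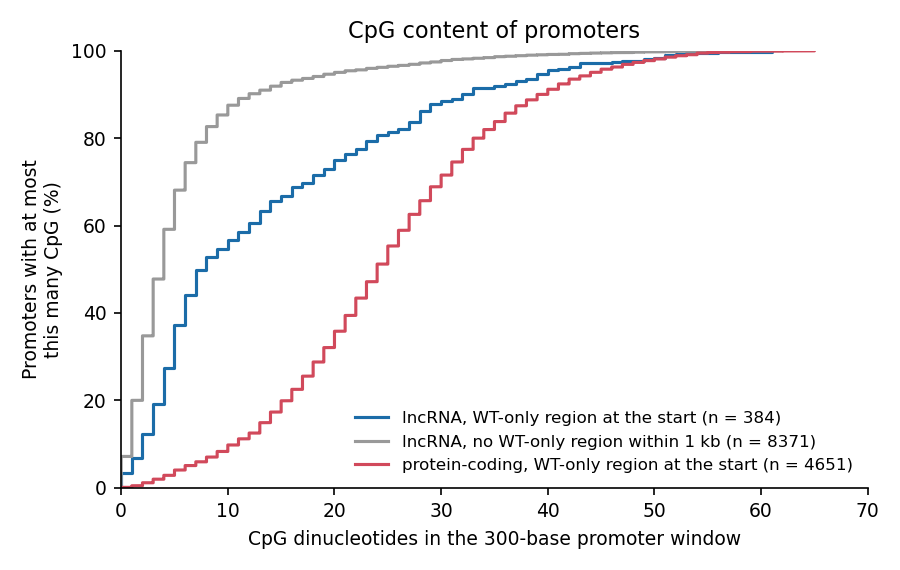
Cumulative percent of promoters against the number of CpG dinucleotides in the 300-base window around the gene start, for lncRNA genes with a WT-only region at the start (blue), lncRNA genes with none within 1 kb (grey) and protein-coding genes with a WT-only region at the start (red). The blue curve lies between the others over most of the range and meets the red one at the high end, with medians of 8, 4 and 24 CpG in the order named.

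The motifs were searched on both strands of these windows. The SMAD element CAGAC was in 54.4% of the 384 promoters (interval 49.3% to 59.5%), close to the 51.6% of all 9291 lncRNA promoters and the 48.7% of all 16457 coding promoters. The palindromic SMAD element GTCTAGAC, which does not contain CAGAC, was in 0 of 384, which allows a share of up to 0.956%, and in 0.215% of all lncRNA promoters. GGCGC was in 38.3% (interval 33.4% to 43.3%), against 19.4% of all lncRNA, 48.0% of all coding and 72.4% of coding promoters with a WT-only region. The GGCGC order follows the CpG order of the sets, and the motif itself holds a CpG. The AP-1 motif TGANTCA was in 12.0% (interval 8.91% to 15.7%), against 9.50% of all lncRNA promoters, 7.12% of all coding promoters and 4.04% of coding promoters with a WT-only region.

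The RUNX motif TGTGGT was in 21.9% of the 384 promoters, against 20.3% of all lncRNA and 14.8% of all coding promoters. The STAT motif TTCNNNGAA was in 9.11%, against 9.58% and 7.88%. ACCGGAAG, an ETS motif, was in 2.60%, against 0.979% and 3.17%, and the cyclic AMP element TGACGTCA in 1.82%, against 1.00% and 2.40%. A split by CpG, chosen after these values were seen, compared promoters of like composition. Among promoters with under 10 CpG, TGANTCA was in 35 of 210 (16.7%; interval 11.9% to 22.4%) of those with a member at the start and in 10.6% (9.88% to 11.3%) of the 7141 lncRNA promoters without a region. In the same class, CAGAC was in 60.5% (53.5% to 67.1%) against 52.3%, and TGTGGT in 27.6% (21.7% to 34.2%) against 21.7%. There GGCGC was in 9.52% against 7.20%, TTCNNNGAA in 11.0% against 10.3%, ACCGGAAG in 1.43% against 0.630% and TGACGTCA in 0.952% against 0.546%. Among promoters with at least 10 CpG, GGCGC was in 73.0% (65.7% to 79.4%) of 174 against 63.0% of 1230, CAGAC in 47.1% against 49.0%, TGTGGT in 14.9% against 15.7%, and TGANTCA in 6.32% (3.20% to 11.0%) against 4.15%. In this CpG-dense class, ACCGGAAG was in 4.02% (1.63% to 8.11%) against 1.63%, TTCNNNGAA in 6.90% against 7.32% and TGACGTCA in 2.87% against 2.76%. Matches of letters do not show binding sites, and these shares were not tested.

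Members within 1 kb of a start had higher median widths where the promoter window was CpG-dense; the member overlapped that window in 285 of the 384 genes. With the same split, the median summed peak width was 779 bp in WT replicate 1 and 663 bp in WT replicate 2 for the 174 genes with at least 10 CpG, and 616 and 497 bp for the 210 with fewer. The order was the same in both libraries.

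At lncRNA ends, 27 reproducible WT regions were left out of the members because a KO peak met them, 20 in KO replicate 1, 14 in KO replicate 2 and 7 in both. The 7 were named after their values were seen. They lay at Morrbid (chromosome 2, 128427635 to 128431038), at Gm32255 2.05 kb from Egr2, at Gm51710 19.6 kb from Smad3, and at Gm36496, 93.9 kb from its nearest coding gene Id2, which encodes an inhibitor of E proteins. The others were at Gm19585, 330 kb from its nearest coding gene Satb1, at A630026N12Rik, 9.08 kb from Gabpb1, and at 5430435K18Rik, 176 kb from Stard13. Morrbid had WT peaks of 3404 and 3108 bp. Gm29010, a neighbour of Morrbid on chromosome 2, had WT-only regions at its start (1546 and 938 bp) and 3′ end (1918 and 1390 bp). The region at its 3′ end also covered the whole promoter window of Gm36154, on the opposite strand. Of the 651 members, 26 had a KO peak within 10 kb and 2 within 1 kb.

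At the 1 kb bound, the members farthest from a lncRNA end were at Gm46942 (993.5 bp; peaks of 432 and 322 bp) and Mirt2 (988.5 bp; 494 and 314 bp). The nearest regions outside it were at 0610039H22Rik (1001 bp; 578 and 442 bp) and Gm32596 (1004 bp; 360 and 366 bp), with widths like those just inside.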

How the data were processed

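Peak lists of 2 WT and 2 KO Smad4 ChIP libraries were used, each as deposited by the authors: chromosome, start and end on mm10, with no score, fold or p-value. Bowtie, HOMER 4.8.3 and Trim Galore stand in the submitters' processing notes without their roles, and the calling threshold and the use of inputs were not stated. There was 1 list per sample. Depth is unknown. Coordinates count from 1. Gene bounds and biotypes were read from RefSeq (GRCm38.p6, the assembly of mm10), and strand and promoters from its sequence table, which matched 497 of the 633 lncRNA genes with a member. One promoter per gene was used, the nearest to the gene's start.

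Results are counts, shares with exact Clopper-Pearson 95% intervals, and medians. No test was run: the members were chosen by the WT and KO calls, and regions are not replicates. The members and the gene lists were chosen with earlier results of these data known. Named were the 10 widest members by summed peak width, listed lncRNA genes, members nearest to listed T cell and SMAD genes, examples of lncRNA genes with members at both ends or with 3 members, and the regions on either side of the 1 kb bound; 2 of the members near T cell and SMAD genes are counted but not reported here. Alternatives were 50% overlap of both peaks, centres within 100 bp, bounds of 500 bp and 2 kb around gene ends, a KO-free margin of 1 kb, the wider 50% of peaks, leaving out each library, and promoters overlapped by a region. The member rule was checked against a brute-force count on simulated peaks. The scripts ran on matplotlib 3.10.9, SciPy 1.17.1, pandas 2.3.3, numpy 2.4.6 and Python 3.11.15.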

Additional observations from a re-analysis of the deposited data

How the results depend on the processing

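Of 78 recomputed values, 59 stayed within 1.5 times a count or within the 95% interval of a share or median, and 19 moved. With the wider 50% of the peaks there were 357 regions at 356 lncRNA genes, 79.3% at a start, a median width of 944 bp, and 93.2% of reproducible lncRNA-end regions without a KO peak. With gene ends of 500 bp, 80.2% lay at a start, 43.1% inside a coding gene and 45.8% within 10 kb of a coding end; with 2 kb, 69.2% lay at a start and 33.5% within 10 kb of a coding end. Centres within 100 bp gave a median width of 613 bp. In promoters overlapped by a region, GGCGC was in 44.9%. Leaving out 1 library at a time gave 658 to 1094 regions, 640 to 1004 genes, 69.3% to 74.1% at a start, median widths of 446 to 658.5 bp, and 96.8% to 97.9% without a KO peak. Without a WT library the regions are peaks of 1 list, not merged ones. Requiring 50% overlap, or no KO peak within 1 kb, moved none of the values. In all of these settings most regions of known strand lay at a lncRNA start. No paired analysis was possible because the results come from no test between samples. The number of reads limits which peaks were called and is unknown.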

Other observations

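On the X chromosome, which the choice of members leaves out, 7 WT-only regions lay at ends of lncRNA genes and more than 1 kb from coding ends. They touched 5 of 289 X-linked lncRNA genes (1.73%; interval 0.564% to 3.99%). Jpx, an activator of the X inactivation gene Xist, had 880 bp of peaks in WT replicate 1 and 754 bp in WT replicate 2 (103493334 to 103494213). Gm15232 had regions of 836 and 1072 bp and of 508 and 578 bp, and Gm1720 regions of 594 and 686 bp and of 446 and 384 bp. Both WT libraries were labelled female.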
